A study of Mus musculus with 60 samples.

Results

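The genes described here are 10 chaperones, folding enzymes and regulators of the mouse endoplasmic reticulum (ER): Hspa5, Hsp90b1, Pdia3, Pdia4, Pdia6, Calr, Dnajb9, Sdf2l1, Xbp1 and Serpinh1. They were taken by name from the gene count table, and all 10 were found among its 55011 gene symbols. RNA sequencing (Smart-seq2) covered 60 libraries in 19 groups from male mice aged 8 weeks. Whole brown adipose tissue (BAT) gave 38 libraries in 12 groups, whole subcutaneous adipose tissue (SAT) gave 14 libraries in 4 groups, and sorted regulatory T cells (Treg cells) gave 8 libraries in 3 groups.

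The Treg cells came from untreated wild-type mice of the strain B6.Foxp3.Thy1.1 and were sorted for CD45, Tcrb, CD4 and the Thy1.1 reporter, from BAT (2 libraries), SAT (3) and spleen (3). Most tissue groups were B6.Foxp3.DTR mice, in which the diphtheria toxin receptor is driven by Foxp3, so that diphtheria toxin (DT) is meant to remove Foxp3+ cells. In the experiments labelled D4 (4 libraries a group) and D3 (3 a group), BAT and SAT of DTR+ mice were set against those of DTR- mice, and both genotypes received DT. The titles of the D3 samples also carry the word PBS, and the labels do not define D3, D4 or CL. In the CL experiment, BAT came from DTR- mice given DT and PBS, DTR- mice given DT and CL, and DTR+ mice given DT and CL (3 each). BAT also came from wild-type C57BL/6J mice given an isotype control antibody or Anti-CD25 (PC61) (3 each), and from DTR+ mice given DT with an isotype control or an Anti-IFNy antibody (3 each). A last group of 3 BAT libraries came from mice kept at 4 degrees and given PBS but no DT; the titles call these mice WT and the genotype label calls them DTR-. Nothing in the labels ties the libraries to separate animals, so the p-values below measure the spread between libraries.

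Proteins that will be secreted or placed in membranes fold in the ER. Hspa5 is the Hsp70-type chaperone of that compartment, Hsp90b1 its Hsp90-type chaperone, and the Pdia proteins form and rearrange disulfide bonds. When unfolded proteins build up, the sensors Ern1, Atf6 and Eif2ak3 start the unfolded protein response, in which Xbp1 and Atf6 switch on many chaperone genes. Brown adipocytes burn fuel as heat, adipocytes secrete hormones, and the fibroblasts between them secrete collagen.

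A known control element of chaperone genes, the ER stress response element (ERSE), was searched as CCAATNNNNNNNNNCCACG on both strands of the RefSeq promoters (GRCm38.p6), which span 250 bases before to 50 after the start. All 10 genes had a promoter in the table. The element was present in 0.119% of the 32851 promoters (39) and in 4 of the 10: Hspa5, Hsp90b1, Calr and Pdia6. Because the element is known from chaperone genes, this is a description and not a test. The windows are printed because these 4 genes share the same letters, while their calls after CL against the PBS libraries differed. Hspa5 and Calr were called higher, Pdia6 was called lower, and Hsp90b1 was not called. The calls of Calr and Pdia6 did not hold with every choice of control, as given below. In BAT minus SAT, given below, all 4 had lower fitted levels in BAT. Capitals mark the fixed bases at either end of the element, on the strand of the gene, and the Calr element and the second Hsp90b1 element lie on the opposite strand.
Hspa5 (chr2:34772020-34772048, + strand): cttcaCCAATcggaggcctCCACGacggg
Hsp90b1 (chr10:86705513-86705676, - strand): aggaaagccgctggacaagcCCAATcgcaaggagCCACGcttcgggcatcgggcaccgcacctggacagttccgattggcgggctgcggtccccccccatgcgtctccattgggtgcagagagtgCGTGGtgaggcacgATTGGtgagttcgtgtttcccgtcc
Calr (chr8:84847055-84847113, - strand): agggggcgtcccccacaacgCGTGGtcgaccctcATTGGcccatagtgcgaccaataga
Pdia6 (chr12:17266471-17266529, + strand): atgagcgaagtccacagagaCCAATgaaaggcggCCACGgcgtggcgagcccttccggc

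The first capitals began 65 bases before the RefSeq start in Hspa5, 98 before it in Pdia6, 162 before it in Calr, and 212 and 107 before it in Hsp90b1. The Hspa5 element lies inside an exon of the longer GENCODE M21 gene model. Among the other genes of the pathway lists used below, 5 of 85 held the element (Canx, Creld2, Derl3, Dnajc3 and Syvn1). Searches for ATTGGNCCACG (0.0365% of promoters), TGACGTGG (0.676%) and TGATGNAAT (0.965%) found none of the 10 genes, which says only that these letters are not in these windows.

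Total counts ran from 3007241 to 9673342 per library. Foxp3 was between 0 and 29 counts in every whole-tissue library, so these libraries cannot show whether DT removed Treg cells. Ucp1, the heat-producing protein of brown fat, marked BAT, and Foxp3, the defining factor of Treg cells, was at 371 CPM or more in the SAT Treg libraries. Levels are CPM, read counts scaled to library size and composition, separately over tissue and Treg libraries. A few libraries stood apart from their group. In the CL experiment, PBS replicate 3 had a summed level of 12 IFNg response genes of 5852 CPM, against 304 and 391 CPM in the other two PBS libraries, and 11 T and NK cell markers at 175 CPM against 9.7 and 18.8. In D4 SAT, DTR- replicate 3 had those markers at 196 CPM against a median of 25.0, and DTR+ replicate 3 had 8 skeletal muscle markers at 3049 CPM against a median of 70.1. Muscle markers reached 3503 CPM in D4 BAT of DTR- mice and 7980 in DTR+ mice. They also reached 3044 CPM in D3 BAT of DTR+ mice and 2519 in that of DTR- mice. With PC61 they reached 8991 CPM and with its isotype control 2169. With Anti-IFNy they reached 5295 CPM and with its isotype control 2586. In D3, PC61 and Anti-IFNy BAT, libraries were left out only singly. Where leaving these libraries out changed a call among the 10 genes, that is stated beside the result.

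Per kilobase of exon, Hspa5 was the highest of the 10 genes in D4 BAT of DTR- mice, at 92.2 ± 5.5 CPM per kb (SD, n = 4). Serpinh1, Pdia3 and Xbp1 followed at 59.9, 56.2 and 52.6 CPM per kb, and Sdf2l1 was lowest at 3.03. In SAT of the same experiment the order differed: Serpinh1, the chaperone dedicated to collagen, stood first at 126 ± 23 CPM per kb (SD, n = 4), Pdia3 at 118 and Hspa5 at 108, with spreads that overlapped. Sdf2l1 reached 16.0 CPM per kb there.

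Between the fat depots, most of the 10 genes were lower in BAT than in SAT of DTR- mice. In D4, 8 were lower, 1 was higher and 1 was not called by edgeR's quasi-likelihood test (Benjamini-Hochberg adjusted p under 0.05), where 25.0% of all 12310 genes tested were lower and 25.9% higher. In D3, 9 were lower and Dnajb9 was not called, with 22.9% of 12387 genes lower. The median log2 difference of the 10 was -1.03 in D4 and -0.96 in D3, against 0.01 and -0.02 over all genes tested.

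**Figure D1:**
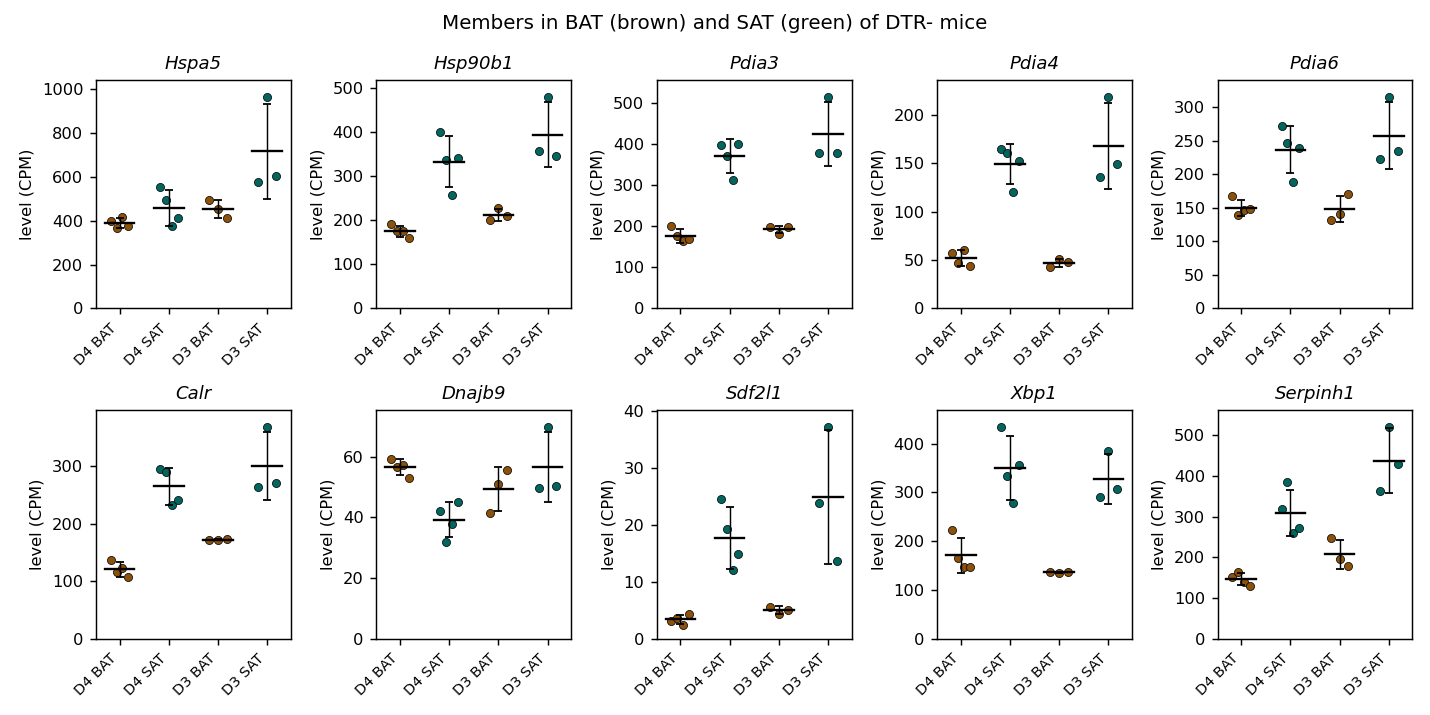
Levels of the 10 genes in whole BAT (brown) and SAT (green) of DTR- mice in D4 (4 libraries a group) and D3 (3 a group), in CPM on linear axes from 0; points are libraries, lines the mean and bars the SD. Every panel but those of Hspa5 and Dnajb9 has its SAT points above its BAT points in both experiments.

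Sdf2l1, an ER-resident partner of Hspa5's co-chaperones, lies on chromosome 16 (17130138 to 17132383, GENCODE M21). It read 3.09, 3.69, 2.35 and 4.30 CPM in D4 BAT and 24.6, 19.3, 12.1 and 14.8 CPM in D4 SAT. No BAT library came near the lowest SAT library. The log2 difference was -2.38 ± 0.29 (SE; edgeR adjusted p = 9.6e-06), and in D3 it was -2.29. Pdia4, a disulfide isomerase, was 52.2 ± 8.0 CPM in D4 BAT and 149 ± 20 CPM in D4 SAT (SD, n = 4), a log2 difference of -1.49 ± 0.13 (adjusted p = 4.0e-07); in D3 the difference was -1.80 (adjusted p = 2.7e-06). Pdia3, which works on glycoproteins held by Calr, differed by -1.05 on the log2 scale in D4 and -1.11 in D3, and Calr, a sugar-binding chaperone that also stores calcium, by -1.11 and -0.77.

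Serpinh1 was 129 to 164 CPM in D4 BAT and 259 to 385 CPM in D4 SAT, with a log2 difference of -1.05 in both experiments. Its clients moved the same way: all 10 collagens on the list were lower in BAT in D4 and in D3, with median log2 differences of -2.46 and -2.75. Of 10 collagen maturation enzymes, 9 were lower in D4 and 7 in D3, none was higher, and Plod3, a lysyl hydroxylase, differed by -1.25 on the log2 scale in D4. Summed fibroblast markers were 1319 to 1744 CPM in D4 BAT and 4957 to 12937 in D4 SAT (10 of 10 lower in BAT), and summed macrophage markers 171 to 395 against 1072 to 2770 (12 of 12). Plasma cell markers, without Xbp1, were 5.67 to 12.7 against 35.8 to 75.4 CPM (3 tested and 3 lower). The part of these cell types in the chaperone differences was not tested, and in whole tissue fewer cells of a type and less RNA per cell cannot be told apart.

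Xbp1, the transcription factor of the Ern1 arm, was 171 ± 36 CPM in D4 BAT and 350 ± 65 CPM in D4 SAT (SD, n = 4), a log2 difference of -1.01 in D4 and -1.24 in D3. Gene counts do not separate its spliced from its unspliced form. Dnajb9, a co-chaperone that speeds the ATPase of Hspa5, went the other way in D4: BAT read 53.1 to 59.1 CPM and SAT 31.9 to 45.1 CPM, without overlap, a log2 difference of 0.55 ± 0.13 (adjusted p = 0.00276). In D3 it was -0.16 (adjusted p = 0.475), so that order did not hold across experiments. Hspa5 differed by -0.21 in D4 (adjusted p = 0.163), where leaving out one library gave -0.29 to -0.11 and it was called without DTR- SAT replicate 3 (-0.29, adjusted p = 0.0397). In D3 it differed by -0.63 (adjusted p = 0.012), and that call was lost without DTR- BAT replicate 3 (-0.57, adjusted p = 0.0529), while without DTR- SAT replicate 2 the value was -0.38 (adjusted p = 0.0349). Of 13 other ER chaperones, 9 were lower in BAT in D4 and 8 in D3, with 0 and 1 higher, while the disulfide isomerase P4hb differed by -1.99 in D4. The cytosolic and mitochondrial heat shock proteins did not follow, with 6 of 10 tested higher and 1 lower in BAT in D4.

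After CL, members of the set rose and fell side by side in BAT of DTR- mice. Hspa5, Calr, Dnajb9 and Serpinh1 rose, Pdia4, Pdia6 and Xbp1 fell, and Hsp90b1, Pdia3 and Sdf2l1 were not called. These are 4 of 10 against 16.3% of all 12048 genes called higher, and 3 of 10 against 11.8% called lower. The median log2 change of the 10 was -0.08, and that of all genes -0.03. Markers of other cells moved between the same libraries. Summed macrophage markers were 198 to 212 CPM after CL and 311 to 855 CPM with PBS (5 of 12 lower), and T and NK cell markers 2.90 to 5.58 against 9.7 to 175 CPM (8 of 11 lower, with Cd8a, Cd8b1, Ncr1 and Gzmb at 0 after CL). B cell markers summed to 6.42 to 12.2 against 21.5 to 38.3 CPM (1 tested and lower), and IFNg response genes to 139 to 198 against 304 to 5852 CPM (3 of 12 lower). Endothelial markers were higher after CL for 4 of 8. The part of these cells in the changes of the 10 genes was not tested.

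Dnajb9 (chromosome 12, 44205559 to 44210326) read 68.3, 92.2 and 124 CPM in the PBS libraries and 288, 368 and 367 CPM after CL. The groups were far apart, and the change was 3.82-fold (log2 1.93 ± 0.21, SE; edgeR adjusted p = 2.6e-05). Hspa5 (chromosome 2, 34771970 to 34777547) read 445, 466 and 708 CPM with PBS and 1066, 815 and 983 CPM with CL. All CL libraries lay above all PBS libraries, replicate 3 being the nearest, and the log2 change was 0.91 ± 0.21 (adjusted p = 0.00593). Calr read 125, 122 and 144 CPM with PBS and 204, 217 and 175 CPM with CL (log2 0.70 ± 0.19, adjusted p = 0.0152).

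Of the genes that fell, Xbp1 (chromosome 11, 5520659 to 5525893) went from 174, 183 and 186 CPM to 78.8, 70.6 and 85.3 CPM. Neither group spread much, and the log2 change was -1.12 ± 0.18 (adjusted p = 0.00045). Pdia4 went from 58.1, 47.5 and 64.3 CPM to 31.6, 23.8 and 29.9 CPM (log2 -0.91 ± 0.22, adjusted p = 0.00755). Pdia6, another disulfide isomerase, went from 196, 162 and 245 CPM to 108, 87.7 and 138 CPM (log2 -0.76 ± 0.22, adjusted p = 0.0191). Of the genes that carry the element printed above, Hspa5 and Calr were called higher and Pdia6 lower against the PBS libraries. Hsp90b1 was at 0.26 ± 0.21 (adjusted p = 0.387). The calls of Calr and Pdia6 depended on the controls, as given below.

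**Figure D2:**
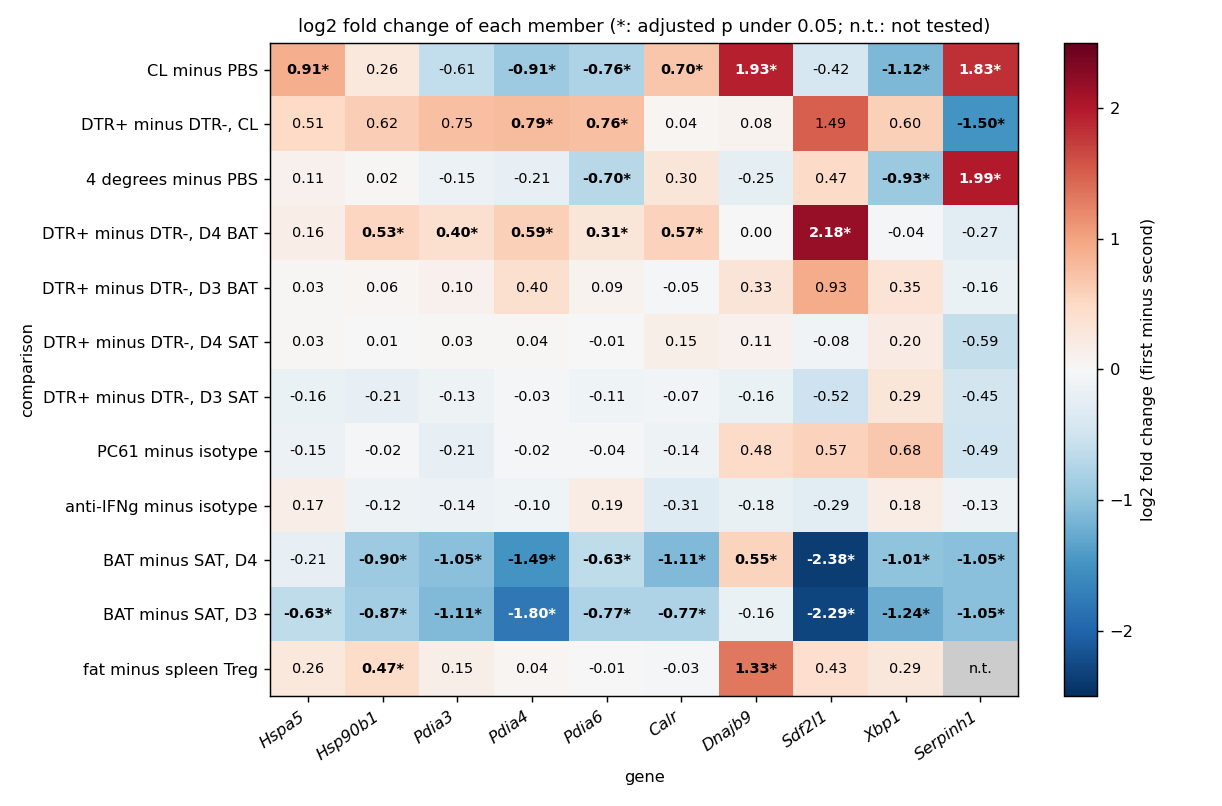
Log2 fold change of each of the 10 genes (columns) in 12 comparisons (rows), first group minus second, from edgeR; red is higher, blue lower, a star marks an adjusted p under 0.05 and grey was not tested. The row for CL holds both colours, while the BAT minus SAT rows are blue except for Dnajb9 in D4.

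The rest of the pathway was as mixed. Among 12 sensors and factors of the unfolded protein response, 3 rose and 1 fell: the eIF2a phosphatase subunits Ppp1r15b (175 to 1073 CPM, log2 2.71 ± 0.19, adjusted p = 6.1e-07) and Ppp1r15a (2.07), the transcription factor Atf4 (84.6 to 570 CPM, 2.84 ± 0.21, adjusted p = 6.5e-07), and the protease Mbtps1, which fell (-0.86). Of 13 other ER chaperones 1 rose, Hyou1 (2.41 ± 0.55, adjusted p = 0.00849), and 2 fell, Dnajc10 (-1.10) and Cnpy2 (-0.67). Of 12 N-glycan genes 0 rose and 3 fell, Lman1 (-1.45), Rpn2 (-0.79) and Ganab (-0.72). In ER-associated degradation, which clears misfolded proteins, 2 of 13 tested rose, the ubiquitin ligase Syvn1 (1.58) and Ube2j1 (0.92).

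Outside the ER the counts were larger. Of 12 tested genes of the amino acid arm of the integrated stress response, 6 rose and 0 fell (median log2 change 1.22), among them Slc3a2, a subunit of amino acid transporters (3.87 ± 0.19, adjusted p = 2.9e-08), and Sesn2 (3.67). Of 12 heat shock genes, 11 rose, with a median of 1.98 and Bag3 at 3.09 ± 0.20 (adjusted p = 3.0e-07). This list holds Hspe1, a mitochondrial chaperonin subunit that rose, beside the cytosolic ones. Summed immediate-early genes, which also respond to handling, were 1233 to 1400 CPM after CL and 121 to 591 CPM with PBS (5 of 9 tested higher); their part in the result was not tested.

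Serpinh1 (chromosome 7, 99345376 to 99353239) read 71.1, 75.5 and 55.0 CPM with PBS and 167, 312 and 194 CPM with CL, a log2 change of 1.83 ± 0.35 (edgeR adjusted p = 0.00223). Of 10 collagens on the client list, 3 rose with it, Col4a1 (2.42), Col4a2 (1.96) and Col15a1 (1.65), and 0 fell; the collagens summed to 3216 to 3606 CPM after CL and 931 to 2615 CPM with PBS, and of 10 fibroblast markers 0 rose and 2 fell. P4ha1 (1.67), P4ha2 (1.07) and Plod2 (3.65), which hydroxylate collagen, rose too, 3 of 10. The PBS group was the lowest of the 12 BAT groups for Serpinh1, with a mean of 67.2 CPM, where D3 BAT of DTR- mice, also given DT, had 248, 195 and 179 CPM.

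Because of that and of PBS replicate 3, the CL result was also computed with other controls, a choice made after seeing the data. Without PBS replicate 3, 6 genes were called, and Pdia6 was lost (-0.59, edgeR adjusted p = 0.101). Sdf2l1, not called with any of these controls, went from -0.42 to 0.56 without that library and to 0.27 with the D3 DTR- libraries. Against the D3 DTR- libraries, 5 genes were called: Hspa5 (1.17), Hsp90b1 (0.72) and Dnajb9 (2.87) higher, and Pdia4 (-0.64) and Xbp1 (-0.70) lower. Calr (0.30, adjusted p = 0.117), Pdia6 (-0.32, adjusted p = 0.217) and Serpinh1 (0.20, adjusted p = 0.486) were then not called, and Pdia3, which was -0.61 with the PBS controls, was 0.14. Hspa5, Dnajb9, Pdia4 and Xbp1 were called with all these choices of control. With the PBS controls, Pdia6 was also lost without CL replicate 1 (adjusted p = 0.0681) or 2 (adjusted p = 0.0813), and Calr without PBS replicate 2 (adjusted p = 0.0573).

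**Figure D3:**
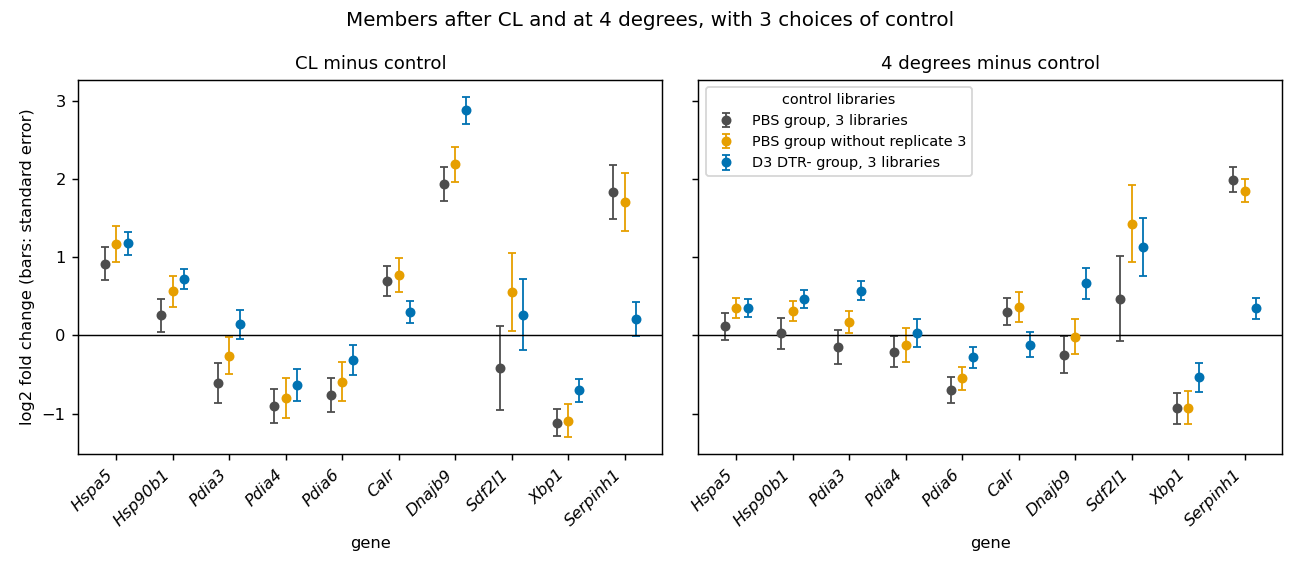
Log2 fold change of the 10 genes after CL (left) and at 4 degrees (right) against 3 choices of control libraries; points are edgeR estimates and bars their standard errors. Serpinh1 drops from 1.83 to 0.20 after CL when the D3 DTR- libraries replace the PBS group, while Dnajb9 goes from 1.93 to 2.87.

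Mice kept at 4 degrees had no controls of their own and were set against the same PBS libraries, which had received DT as well; the comparison shares its controls with that of CL. Serpinh1 was higher, at 264, 276 and 276 CPM (log2 1.99 ± 0.16, edgeR adjusted p = 0.000175), where 4.86% of 12329 genes were called higher. Xbp1 at 78.1, 130 and 81.5 CPM (-0.93 ± 0.19, adjusted p = 0.0144) and Pdia6 at 129, 121 and 129 CPM (-0.70 ± 0.16, adjusted p = 0.0225) were lower, against 3.80% of genes called lower. The other 7 lay between -0.25 and 0.47 and were not called. Without PBS replicate 3 these 3 were called again, and Sdf2l1 went from 0.47 to 1.43 (adjusted p = 0.102). With the D3 DTR- controls, 5 others were called and none of these 3: Hspa5 (0.35), Hsp90b1 (0.47), Pdia3 (0.57), Dnajb9 (0.67) and Sdf2l1 (1.13), all higher. Serpinh1 was then 0.34 (adjusted p = 0.0849), Xbp1 -0.54 (adjusted p = 0.0514) and Pdia6 -0.28 (adjusted p = 0.158). The calls at 4 degrees therefore depend on the control group, and leaving out cold replicate 1 or 3 left 1 call of the 3, Serpinh1; Pdia6 was lost also without cold replicate 2 (adjusted p = 0.0837) or PBS replicate 1 (adjusted p = 0.0632).

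Summed IFNg response genes were 214 to 240 CPM at 4 degrees and 304 to 5852 CPM with PBS (0 of 12 called by edgeR), and macrophage markers 243 to 311 against 311 to 855 CPM (1 of 10 tested lower). Plasma cell markers, without Xbp1, summed to 4.36 to 10.2 against 14.8 to 20.4 CPM (2 of 3 tested lower), and 5 of 8 endothelial markers were higher. The part of these cells in the differences of Xbp1, Pdia6 and Serpinh1 was not tested.

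In the rest of the pathway, P4hb (0.56), P4ha2 (1.42), P4ha1 (1.12) and Col4a2 (1.43) were higher at 4 degrees than with PBS. These values rest on the PBS controls alone. They are not given for the D3 DTR- controls, with which the calls of the members changed. By edgeR, 0 of 12 unfolded protein response genes, 0 of 13 other ER chaperones and 0 of 13 tested genes of ER-associated degradation were called, and DESeq2 called 0 in each list. At an unadjusted p under 0.05 there were 0, 3 and 2, and the median log2 differences were 0.08, -0.02 and -0.03.

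In DTR+ mice given CL, Pdia4 and Pdia6 were higher and Serpinh1 lower than in DTR- mice given CL. The call rule picked 4.51% of all genes as higher and 3.21% as lower. By edgeR, 8 of the 10 genes, all but Calr and Dnajb9, had an unadjusted p under 0.05, as did 2996 of the 12048 genes tested. The median log2 difference was 0.61 against 0.01 over all genes. Pdia4 read 31.6, 23.8 and 29.9 CPM in DTR- mice and 46.9, 54.9 and 46.4 CPM in DTR+ mice (log2 0.79 ± 0.22, edgeR adjusted p = 0.0423). Pdia6 read 234, 149 and 187 CPM in DTR+ mice (0.76 ± 0.22, adjusted p = 0.0491). Serpinh1 read 40.4, 118 and 81.5 CPM there, all below the DTR- libraries (-1.50 ± 0.34, adjusted p = 0.0222).

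Hspa5 reached its highest level of all BAT groups in these mice, with 1721, 1091 and 1298 CPM, above every DTR- library given CL (815 to 1066 CPM), yet the difference was not called (0.51, adjusted p = 0.151). Sdf2l1 read 15.3, 18.9 and 13.6 CPM against 6.17, 7.51 and 3.44 CPM (1.49 ± 0.54, adjusted p = 0.102), and Xbp1 142, 117 and 98.4 CPM against 78.8, 70.6 and 85.3 (0.60, adjusted p = 0.0518). Dnajb9 had no difference called, with 383, 384 and 323 CPM in DTR+ mice (0.08 ± 0.21, adjusted p = 0.859). The number of genes called was unstable here: leaving out one library gave 0 to 4 calls, 0 without DTR- CL replicate 2 or DTR+ CL replicate 3, and 1 without DTR- CL replicate 1, DTR+ CL replicate 1, PBS replicate 1 or PBS replicate 2. Pdia4 lost its call without any one of the 9 libraries (adjusted p from 0.0521 to 0.135), and Pdia6 in 7 of the 9 fits, all but those without DTR- CL replicate 3 or DTR+ CL replicate 2 (adjusted p from 0.0515 to 0.177). Serpinh1 lost it in 2, without DTR- CL replicate 2 (-1.21, adjusted p = 0.0708) or DTR+ CL replicate 3 (-1.51, adjusted p = 0.089). Without PBS replicate 3, which enters the fit through its spread, 4 were called: Hsp90b1, Pdia3, Sdf2l1 and Serpinh1.

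Other pathway genes are given here only for the fit with all libraries, in this comparison where the calls of the members were unstable. In DTR+ mice given CL, Sec63 (1.36), a partner of Hspa5 at the translocation channel, P4hb (0.74), Ssr1 (1.00), Spcs3 (1.01) and Rpn2 (0.70) were higher in that fit. By edgeR, 0 of 12 unfolded protein response genes and 0 of 12 heat shock genes were called. Each of these lists had 2 genes at an unadjusted p under 0.05 and 1 called by DESeq2. Macrophage markers summed to 1068 to 1236 CPM in DTR+ and 198 to 212 CPM in DTR- mice (11 of 12 higher), and T and NK cell markers to 78.3 to 88.1 against 2.90 to 5.58 CPM (5 of 11 higher, with Cd8a, Cd8b1, Ncr1 and Gzmb at 0 in DTR- mice). Fibroblast markers summed to 2257 to 3486 against 1925 to 2088 CPM (3 of 10 higher) while Serpinh1 was lower. The part of these cells in the chaperone differences was not tested.

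In the D4 experiment, 6 of the 10 genes were higher in BAT of DTR+ than of DTR- mice and 0 were lower, where 8.73% of 11695 genes tested were called higher. The median log2 difference of the 10 was 0.36, and that of all genes 0.02. Those called were Hsp90b1, Pdia3, Pdia4, Pdia6, Calr and Sdf2l1, that is the Hsp90-type chaperone, all 3 disulfide isomerases, the calcium-binding chaperone and the Hspa5 partner. Hspa5 itself was not called.

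Sdf2l1 read 3.09, 3.69, 2.35 and 4.30 CPM in DTR- mice and 7.81, 14.2, 21.3 and 15.1 CPM in DTR+ mice. The groups did not overlap, and the difference was 4.53-fold (log2 2.18 ± 0.33, edgeR adjusted p = 0.000342), from counts of 16 to 21 per library in DTR- and 48 to 112 in DTR+ mice. Pdia4 read 57.2, 46.6, 60.8 and 44.3 CPM against 67.0, 85.3, 82.8 and 68.9 CPM in DTR+ mice (0.59 ± 0.13, adjusted p = 0.00619). Hsp90b1 read 191, 175, 177 and 160 CPM against 203, 306, 238 and 234 CPM (0.53 ± 0.12, adjusted p = 0.00509). These 3 were the genes whose ranges stayed apart.

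Calr read 137, 116, 122 and 107 CPM against 136, 171, 197 and 186 CPM, with DTR+ replicate 1 inside the DTR- range (0.57 ± 0.12, adjusted p = 0.00386). Pdia3 (0.40 ± 0.13, adjusted p = 0.043) and Pdia6 (0.31 ± 0.10, adjusted p = 0.0393) were close to the threshold: each lost its call when any of DTR- replicates 2, 3 and 4 or DTR+ replicates 2, 3 and 4 was left out (adjusted p from 0.0613 to 0.148 for Pdia3 and from 0.0772 to 0.165 for Pdia6). Hspa5 was 0.16 ± 0.11 (adjusted p = 0.373), Dnajb9 0.00, Xbp1 -0.04 and Serpinh1 -0.27 ± 0.12 (adjusted p = 0.134). Without the 3 BAT libraries with more than 2000 CPM of muscle markers, an alternative chosen after seeing the data, Pdia3 (0.43, adjusted p = 0.0857) and Pdia6 (0.34, adjusted p = 0.135) were not called at values no smaller than with all libraries, and the other 4 were called, Sdf2l1 at 2.38.

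**Figure D4:**
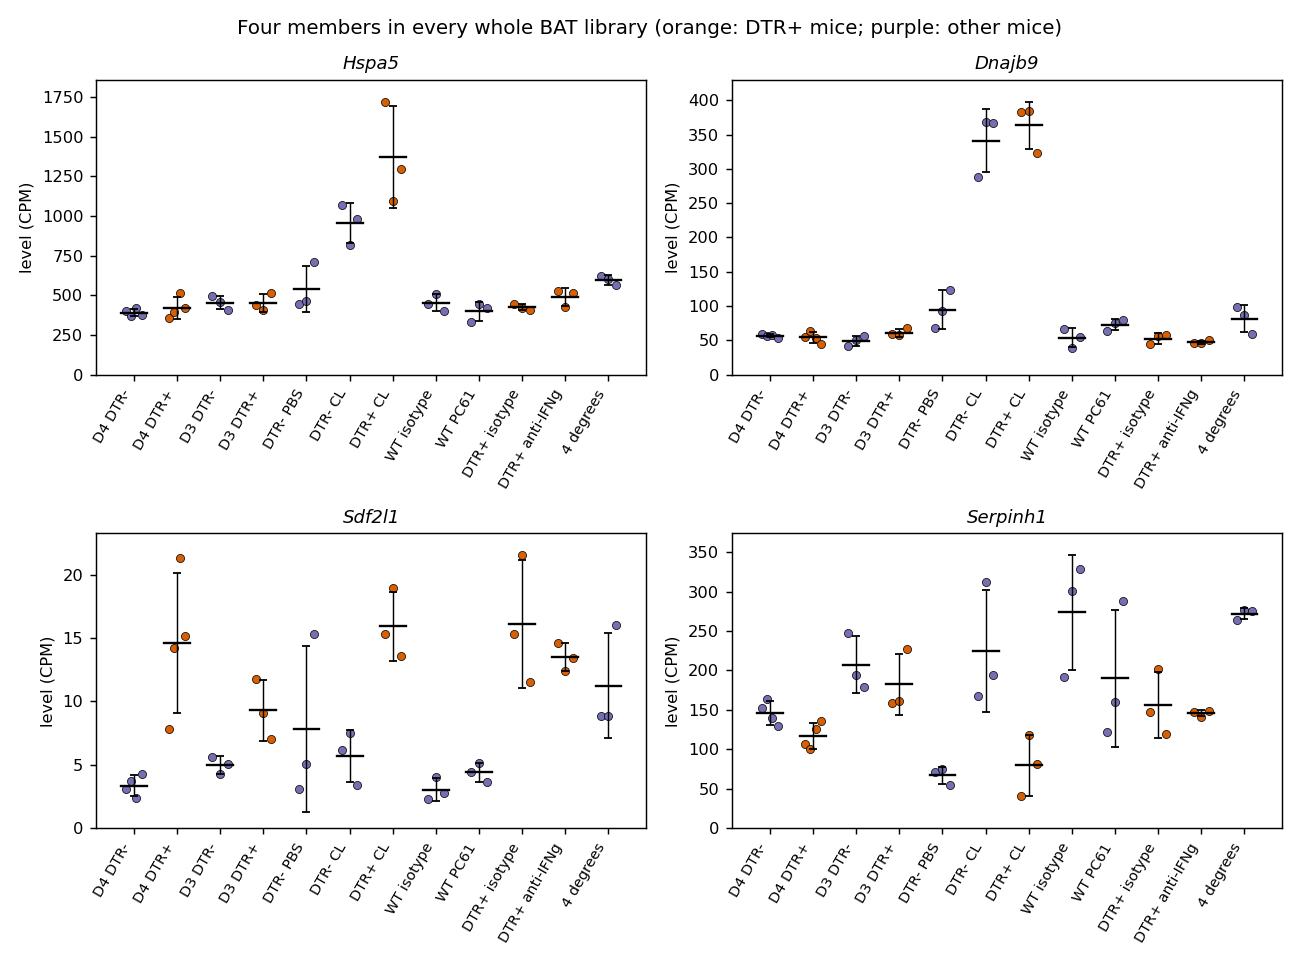
Hspa5, Dnajb9, Sdf2l1 and Serpinh1 in each of the 38 whole BAT libraries in 12 groups, in CPM on linear axes from 0; orange points are DTR+ mice, purple points other mice, lines the mean and bars the SD. Dnajb9 stands at 288 CPM or more in both CL groups and at 124 CPM or less elsewhere, and 17 of the 22 purple Sdf2l1 points lie below the lowest orange point.

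From the lists, 2 of 12 unfolded protein response genes were higher in D4 BAT of DTR+ mice, Atf4 (0.80 ± 0.11, edgeR adjusted p = 0.000139) and Ddit3 (0.99 ± 0.15, adjusted p = 0.000391). P4hb (0.60), Txndc5 (0.63) and Fkbp11 (1.84, from under 1 CPM) rose among 16 folding enzymes, Erp29 (0.65) among 13 chaperones, and Derl1, of ER-associated degradation, fell (-0.73). Of 10 collagens 4 were higher, Col6a1 (0.82), Col6a2 (0.71), Col3a1 (0.36) and Col4a1 (0.36), while their chaperone Serpinh1 was not called. Other cells moved in the same libraries. Macrophage markers summed to 606 to 1323 CPM in DTR+ against 171 to 395 CPM in DTR- mice (10 of 12 higher), and IFNg response genes to 1214 to 3076 against 250 to 356 (12 of 12). T and NK cell markers summed to 21.6 to 58.8 against 6.45 to 8.09 CPM (3 of 3 tested higher), and immediate-early genes to 1071 to 1898 against 153 to 798 (5 of 9). Plasma cell markers, without Xbp1, summed to 13.3 to 18.3 against 5.67 to 12.7 CPM, without overlap (1 of 2 tested higher). Mzb1 was at 0 in both groups. The part of these cells in the chaperone differences was not tested.

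In D4 SAT, none of the 10 genes was called by edgeR between DTR+ and DTR- mice, where 0.314% of 12728 genes were called in either direction; 1 of the 10, Serpinh1, had an unadjusted p under 0.05, and DESeq2 also called 0. Sdf2l1 read 18.5, 16.9, 11.5 and 19.2 CPM in DTR+ SAT against 24.6, 19.3, 12.1 and 14.8 CPM (-0.08 ± 0.24, adjusted p = 0.959). Serpinh1 read 319, 385, 259 and 271 CPM in DTR- and 174, 166, 252 and 217 CPM in DTR+ SAT. Those ranges did not overlap, but the log2 difference of -0.59 ± 0.15 missed the threshold (adjusted p = 0.238). Without the 2 SAT libraries that stood apart, again a choice made after seeing the data, it passed, at -0.78 (adjusted p = 0.0178). In the libraries kept, fibroblast markers summed to 8105 to 8382 CPM in DTR+ and 10025 to 12937 CPM in DTR- SAT, and the 10 collagens to 7326 to 7831 against 9528 to 12630 CPM. With all 8 libraries those sums overlapped, at 6437 to 8382 against 4957 to 12937 CPM for fibroblast markers and 5995 to 7831 against 5355 to 12630 CPM for collagens, and 0 of 10 genes of either list were called; the lists share Col1a1, Col1a2 and Col3a1. The part of these cells in the Serpinh1 difference was not tested.

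The difference between the depots in the effect of DTR was itself tested in D4. Sdf2l1 was called, at 2.23 ± 0.42 on the log2 scale (edgeR adjusted p = 0.00544), with 3.06% of 13502 genes called higher in this term. For Hsp90b1 (0.49, adjusted p = 0.121), Pdia4 (0.53, adjusted p = 0.108) and Calr (0.40, adjusted p = 0.179), no difference between depots was called. Hsp90b1 passed without the 2 SAT libraries that stood apart (0.66, adjusted p = 0.0266), and 3 genes were called without DTR+ BAT replicate 1 or without DTR- SAT replicate 3.

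In D3, none of the 10 genes was called by edgeR in BAT (3.52% of 11666 genes called in either direction) or in SAT (0% of 12596, with 629 genes, 1 of the 10 among them, at an unadjusted p under 0.05), and DESeq2 called 0 of the 10 in both. In BAT, 4 of the 10 had an unadjusted p under 0.05, as did 2086 of the 11666 genes tested. The 4 were Pdia4, Dnajb9, Sdf2l1 and Xbp1. Sdf2l1 read 5.6, 4.24 and 5.07 CPM in DTR- mice and 11.8, 9.07 and 7.02 CPM in DTR+ mice (0.93 ± 0.32, adjusted p = 0.14). Pdia4 read 42.8, 51.2 and 47.5 CPM against 59.7, 59.5 and 64.2 CPM (0.40 ± 0.13, adjusted p = 0.128). Both lay on the side seen in D4, while Calr, called in D4, was at -0.05 and Hsp90b1 at 0.06. Between depots, 0.0675% of 13325 genes were called in the D3 term and none of the 10, Sdf2l1 being at 1.43 ± 0.47 (adjusted p = 0.271); 1 of the 10 had an unadjusted p under 0.05, and DESeq2 called 0. The D3 list genes that were called in BAT were Ppp1r15a (1.11) and Atf4 (0.67), higher, and Derl1 (-0.88), lower.

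Across all BAT groups, Sdf2l1 was mostly higher in libraries of DTR+ mice. In the 16 libraries of DTR+ mice it ranged from 7.02 to 21.5 CPM with a median of 13.9, and in the 22 other libraries from 2.29 to 16.0 CPM with a median of 4.37. The 5 other libraries at or above 7.02 CPM were DTR- CL replicate 2, PBS replicate 3, which also had the high IFNg response, and all 3 libraries at 4 degrees. So 17 of the 22 lay below every DTR+ library, where the same count was 11 for Pdia6 and 1 for Hspa5. The groups come from separate experiments, so this is a description without a test, and all neighbours in the order of the 12 group means overlapped.

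Antibody treatments left the set without a call. With Anti-CD25 (PC61), 0 of the 10 genes were called in BAT of wild-type mice by edgeR or by DESeq2 (0.651% of 11513 genes called in either direction by edgeR); 1 of the 10 had an unadjusted p under 0.05, and the values ran from -0.49 for Serpinh1 to 0.68 for Xbp1. Xbp1 read 47.8, 111 and 95.7 CPM with isotype and 170, 90.7 and 136 CPM with PC61, and the groups overlapped (adjusted p = 0.641). Dnajb9 was at 0.48 (adjusted p = 0.331) and Sdf2l1 at 4.43, 5.17 and 3.63 CPM against 2.29, 4.07 and 2.77 CPM. With the Anti-IFNy antibody in DTR+ mice, edgeR and DESeq2 likewise called 0 of the 10 (0.541% of 12017 genes called by edgeR), and 1 had an unadjusted p under 0.05, Calr at -0.31 ± 0.12 (adjusted p = 0.508). Summed IFNg response genes were 344 to 378 CPM with the antibody and 979 to 1265 CPM with isotype. Sdf2l1 read 14.6, 12.4 and 13.4 CPM with the antibody and 15.3, 21.5 and 11.6 CPM with isotype, and the groups overlapped.

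In sorted Treg cells, Dnajb9 and Hsp90b1 were higher in those from fat than in those from spleen, 2 of 9 genes tested, where 7.29% of 13847 genes were called higher. The median log2 difference of the 9 was 0.26, against -0.01 over all genes. Dnajb9 read 65.4 and 50.8 CPM in BAT Treg cells, 44.5, 91.1 and 48.3 CPM in SAT Treg cells and 22.1, 21.9 and 27.4 CPM in spleen Treg cells. All 5 fat libraries lay above all 3 spleen libraries, and the log2 difference was 1.33 ± 0.25 (edgeR adjusted p = 0.00457). Hsp90b1 read 455 and 545 CPM in BAT, 440, 554 and 494 CPM in SAT and 399, 347 and 336 CPM in spleen (0.47 ± 0.10, adjusted p = 0.0114), and its call was lost without spleen replicate 2 or 3.

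**Figure D5:**
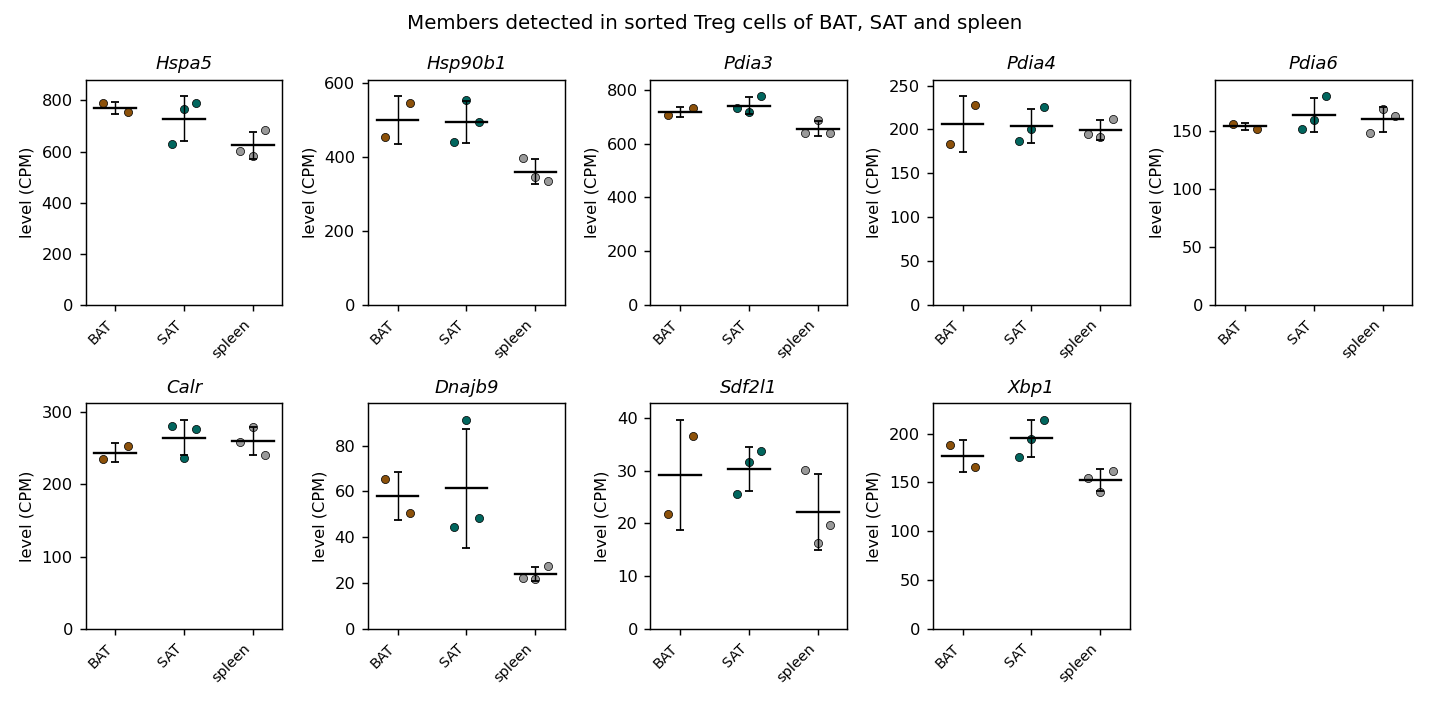
The 9 genes tested in sorted Treg cells from BAT (2 libraries), SAT (3) and spleen (3), in CPM on linear axes from 0; points are libraries, lines the mean and bars the SD. The fat points lie above the spleen points for Hsp90b1, Pdia3, Dnajb9 and Xbp1, and Serpinh1, with 2 counts in all 8 libraries, is not drawn.

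Pdia3 (0.15, adjusted p = 0.181) and Xbp1 (0.29, adjusted p = 0.107) also had ranges that did not overlap but were not called, and Hspa5 was at 0.26 (adjusted p = 0.0829), called without SAT replicate 1 (0.31, adjusted p = 0.0174). Per kilobase, Pdia3 led in spleen Treg cells at 209 CPM per kb, ahead of Hspa5 at 148 and Calr at 90.1. Serpinh1 was not detectable beyond 1 count in 1 SAT and 1 spleen library. Between BAT and SAT Treg cells none of the 9 was called, nor was any gene (0% of 13847, with 1231 genes at an unadjusted p under 0.05 but 0 of the 9); DESeq2 called 42 genes higher and 48 lower there, 0 of the 9 among them.

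Of the unfolded protein response list, 4 of 12 were higher in fat Treg cells: Ppp1r15a (23.4 to 669 CPM, log2 4.82), Atf4 (1.04), the sensor Ern1 (1.46) and the sensor Atf6 (0.81). Among folding enzymes 3 of 13 tested were higher, Ero1l (1.29), Erp44 (0.48) and Txndc5 (0.74), and 5 of 11 heat shock genes were higher, among them Hsp90aa1 (1.42). Immediate-early genes summed to 6578 to 11543 CPM in fat and 803 to 874 CPM in spleen Treg cells (10 of 10 higher), and macrophage markers to 274 to 570 against 73.5 to 157 CPM (1 of 11 tested higher and 3 lower). Plasma cell markers, without Xbp1, summed to 58.1 to 74.7 CPM in BAT, 53.4 to 83.8 in SAT and 14.7 to 25.1 in spleen Treg cells (1 of 2 tested higher), with Tnfrsf17 at 0 in all 3 groups and Jchain and Mzb1 at 0 in BAT. Whether these sums have a part in the Dnajb9 and Hsp90b1 differences was not tested.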

How the data were processed

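The deposited table holds raw read counts per gene symbol, made by the authors; per the submitters' processing notes the tools were STAR 2.7.3a and featureCounts with the build mm10, and the annotation release is not given in the sources used here. Whole-tissue libraries started from 2 ng of RNA, per the labels' protocols. From the counts, 15 comparisons were fitted with edgeR 4.0.16 (R 4.3.3, limma 3.58.1; filterByExpr, TMM, robust quasi-likelihood, Benjamini-Hochberg over all genes tested, threshold 0.05); DESeq2 1.42.0 was an alternative. A log2 value is a fitted fold change with its standard error. CPM were TMM-scaled, and CPM per kb divides by GENCODE M21 exon length, whose symbols matched 52936 of 55011. The fits were tested on simulated data. Libraries sharing a replicate number were treated as unpaired, because in no comparison did every same-numbered pair correlate above 0.1. That rule cannot exclude pairing: in D4 BAT minus SAT the 4 pairs ran from 0.066 to 0.182. Chi-square per degree of freedom between replicates was 7.02 to 37.6 over 67 pairs, so none were copies.

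Named genes are the 10 members everywhere, and from each pathway list up to 3 called genes with the smallest p; Atf6, Mbtps1, Col3a1 and Hspe1 were named after their values were seen. The members and lists were chosen with earlier results of these data known. Alternatives were DESeq2, no low-count filter, each replicate left out, a replicate block and other controls.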

Additional observations from a re-analysis of the deposited data

Results flagged for a closer look

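The effect of DTR in the D4 experiment on Sdf2l1 differed between the depots by 2.23 on the log2 scale, higher in BAT, in a test of the difference itself. In D4 SAT of DTR+ mice, replicate 3 had the lowest Pdia3 level, 356.7 CPM, with a gap to the other 3 libraries that is large for a group of this size; this library also had 3049 CPM of summed muscle markers. In D4 BAT of DTR+ mice, replicate 3 had the highest Xbp1 level, 181.4 CPM, with a gap of the same kind. Chance alone singles out about 1 in 20 groups in this way, and 40 pairs of gene and group were looked at.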

How the results depend on the processing

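Of 40 called single-gene results, 433 of 491 alternatives kept direction and call, 58 kept only the direction and 0 reversed. Leaving out one library gave 1 to 3 calls between fat and spleen Treg cells, 1 to 3 in the D4 difference between depots, 0 to 4 between genotypes after CL and 1 to 3 at 4 degrees. Without the filter on low counts there was 1 call in D4 SAT, 2 in the D4 difference between depots, 1 in that of D3 and 5 between genotypes after CL. Without the 2 SAT libraries that stood apart there was 1 in D4 SAT and 2 in the D4 difference between depots. With D3 DTR- controls there were 5 calls at 4 degrees, 0 of them shared with the PBS controls. With D3 controls the sign turned for Pdia3 (0.14) and Sdf2l1 (0.27) after CL and for Calr (-0.12), Pdia3 (0.57), Pdia4 (0.03) and Dnajb9 (0.67) at 4 degrees, all uncalled with the PBS controls; without PBS replicate 3 it turned for Sdf2l1 after CL (0.56). Leaving out one library at 4 degrees gave -0.0075 to 0.35 for Hspa5, -0.14 to 0.31 for Hsp90b1 and -0.30 to 0.17 for Pdia3, none of them called with the PBS controls; the cause was not tested. With a replicate block there were 4 calls instead of 6 in D4 BAT (Pdia3 and Pdia6 lost), 8 instead of 7 after CL, and 2 instead of 3 at 4 degrees (Pdia6 lost). A replicate block was not fitted for the Anti-IFNy comparison, because its groups share 1 replicate number. Under DESeq2, 129 of 150 pathway list counts stayed within 1.5 times. Over all genes, DESeq2 called 73 higher and 13 lower in D4 SAT (edgeR 38 and 2), 18 and 0 in D3 SAT (0 and 0), 636 and 313 in the D4 difference between depots (413 and 142), 90 and 34 in that of D3 (8 and 1), 809 and 717 between genotypes after CL (543 and 387), 59 and 153 with PC61 (19 and 56), 15 and 84 with Anti-IFNy (4 and 61), and 287 and 247 in D3 BAT (261 and 150). Low counts limit Sdf2l1 in BAT.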

Other observations

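Genes whose levels ran most like Hspa5 were looked up as a description, without a test, over libraries that differ in depth and come from separate experiments. The search covered genes with at least 10 CPM on average. Predicted, ribosomal, mitochondrially encoded and variable-segment genes were left out of the ranking. Among those ranked of 7961 other genes in the 38 BAT libraries, the highest Pearson r belonged to Bzw1 (0.954), Zc3h15 (0.952), Nifk (0.945), Eif4e (0.945), Rheb (0.944), Ddx24 (0.944), Coq10b (0.938) and Selenok (0.938). The 6 CL libraries carried much of this: over the other 32, Bzw1 was at 0.739 and Nifk at 0.651. In the 14 SAT libraries the leading genes were mostly cytosolic chaperones, Cct8 (0.948), Hspa8 (0.945), Hsph1 (0.940), Cacybp (0.911), Stip1 (0.908), Dnaja1 (0.898) and Hsp90ab1 (0.893), with Rilpl2 (0.911). Among the other members, Dnajb9 was at 0.885 in BAT and 0.402 without the CL libraries, and Hsp90b1 at 0.871 and 0.703. Pdia3 rose from 0.544 to 0.768, and Pdia4 was at -0.500 and -0.084.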
